A study of Rattus norvegicus with 12 samples.

Results

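Cd3d, Lef1, Ccr7, Cd37, Blnk and Btg1, 6 genes known from T and B lymphocytes, were followed in rat blood after lipopolysaccharide (LPS), a bacterial surface glycolipid that immune cells detect. They were found by gene symbol in the platform annotation, where each has 1 probe, and are 6 of 3939 named genes and 6 of 7200 probes. They were chosen by these same ratios, which lay below control at 2 h or 6 h, so their values are described here without a test and support nothing by themselves. The study hybridised total RNA of 3 rats at 2 h and 3 rats at 6 h after LPS against a control pool of the same time on 2-colour arrays. Each rat was run on 2 arrays with the channels exchanged, called fluor (LPS RNA in channel 2) and flip (LPS RNA in channel 1) in the labels, 12 arrays in all. The sources used here give no strain, sex, age, dose or route, and the title of the study alone names blood. Nor do the labels say whether the rats numbered 2 at both times are 1 animal, or how many animals a control pool held.

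T lymphocytes recognise antigen through the T cell receptor, whose signal passes through the CD3 chains, and B lymphocytes through the surface immunoglobulin receptor, whose signal passes through adaptor proteins such as BLNK. Naive lymphocytes move between blood and lymph nodes under the control of chemokine receptors, of which CCR7 directs them into the T cell zone. In blood exposed to LPS, neutrophil numbers commonly rise and lymphocyte numbers commonly fall. In RNA from whole samples, fewer cells of a type and less RNA per cell cannot be told apart.

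Each value below is a log2 ratio, read as LPS over control pool, so that -1 is 1 halving of the level. Values of a rat are the mean of its fluor and flip arrays, and errors are standard deviations (SD) over 3 rats. The direction is likely rather than settled, because the labels give no dyes and each rat's fluor and flip arrays correlated weakly over all probes (Pearson r from -0.234 to 0.249). The basis, chosen after seeing the data, is that genes known to rise with LPS lay above 0 on both kinds of array. Il1b, which encodes interleukin-1 beta, and Zfp36, an mRNA-destabilising feedback regulator, lay below 0 on 0 of 12 arrays. Ratios carry no levels, so whether the defining markers of blood cells were present could not be checked, and no gene was compared with another by level.

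Promoter sequences are shown for the genes with the lowest mean ratios of the 6, as a view of the bases around a start site of each. Of the 6 genes, 5 (Cd3d, Lef1, Cd37, Blnk and Btg1) matched the RefSeq promoter table of the rat build GRCr8. Each sequence runs 5′ to 3′ from 250 bases before to 50 bases after a start site. Capitals mark matches, on either strand, to short cores bound by lymphocyte transcription factors: TCF/LEF (CTTTGA, or TCAAAG on the other strand), ETS (AGGAAG or CTTCCT) and KLF (CCACCC or GGGTGG). No matches overlapped. The Cd3d window is on the plus strand at chr8:54185269-54185568, inside the annotated gene. The Cd37 window is on the minus strand at chr1:104860735-104861034, also inside the annotated gene. The Btg1 window is on the plus strand at chr7:33227899-33228198. Its start site is the first annotated base of the gene (33228149), where the sequence opens with atg, the letters of a start codon. Whether transcription starts there or further upstream was not tested, and the marked bases may lie inside the transcript.
Cd3d: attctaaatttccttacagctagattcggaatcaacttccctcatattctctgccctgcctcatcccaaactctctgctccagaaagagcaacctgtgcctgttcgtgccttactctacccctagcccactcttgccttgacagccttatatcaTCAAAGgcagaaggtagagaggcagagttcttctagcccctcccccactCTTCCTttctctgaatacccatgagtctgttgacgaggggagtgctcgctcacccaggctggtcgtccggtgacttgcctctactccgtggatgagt
Cd37: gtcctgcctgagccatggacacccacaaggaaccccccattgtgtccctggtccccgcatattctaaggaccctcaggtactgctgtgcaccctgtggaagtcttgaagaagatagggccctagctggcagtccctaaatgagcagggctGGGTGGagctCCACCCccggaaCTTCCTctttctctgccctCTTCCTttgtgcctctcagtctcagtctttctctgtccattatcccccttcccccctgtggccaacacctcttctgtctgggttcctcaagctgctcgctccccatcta
Btg1: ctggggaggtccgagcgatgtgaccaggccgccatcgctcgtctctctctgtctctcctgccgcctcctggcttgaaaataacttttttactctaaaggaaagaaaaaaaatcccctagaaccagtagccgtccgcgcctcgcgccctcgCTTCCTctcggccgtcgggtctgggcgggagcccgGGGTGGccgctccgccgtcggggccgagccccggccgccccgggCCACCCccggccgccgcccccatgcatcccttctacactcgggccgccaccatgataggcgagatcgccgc

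The Cd3d window held 1 TCF/LEF and 1 ETS match, the Cd37 window 2 ETS and 2 KLF matches, and the Btg1 window 1 ETS and 2 KLF matches. Lef1 (chr2:222340463-222340762, plus strand) had 1 KLF match and Blnk (chr1:249770484-249770783, minus strand) had 0 of any kind. Such short cores are common. Among 33469 rat promoter windows of the same length, 16.1% held the TCF/LEF core, 34.5% the ETS core and 29.4% the KLF core. A match describes letters and is no evidence of binding.

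The 6 genes lay below control at both times, by amounts that ran from barely to clearly. Their median log2 ratio was -0.31 at 2 h and -0.48 at 6 h, against -0.0070 and 0.0069 over all 3939 genes. Lef1, Cd37, Blnk and Btg1 lay below 0 on all 12 arrays, as did 6.37% of all genes. At 2 h 4 of the 6 and at 6 h all 6 lay below 0 on every array, against 11.5% and 12.6% of all genes. Because these ratios chose the genes, nothing is read from these counts. Btg1 had the lowest ratio of the 6 in 5 of 6 rats and Cd3d in the other, the rat numbered 6 at 6 h.

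**Figure D1:**
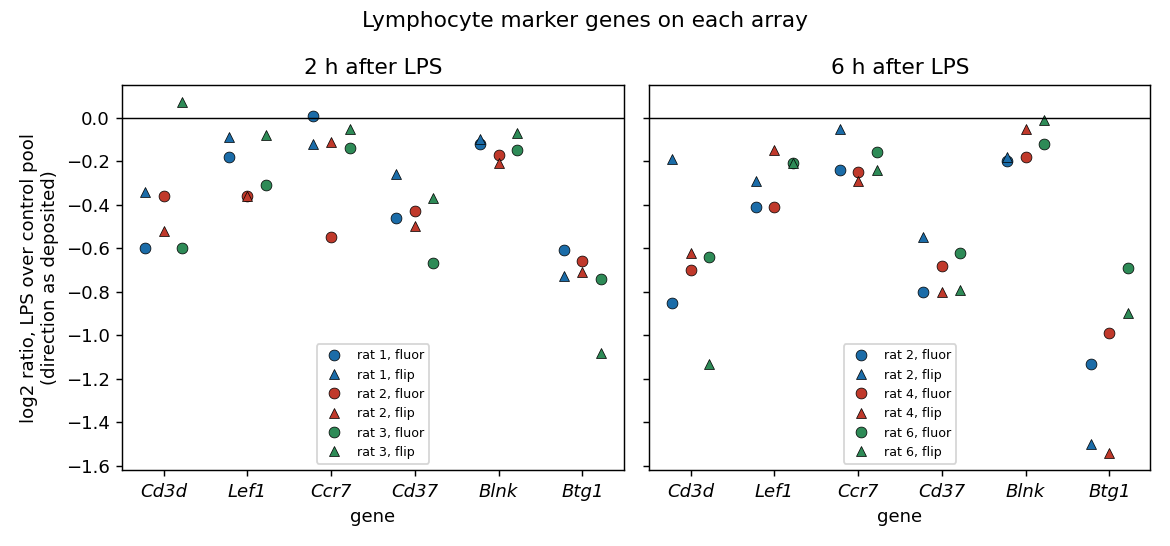
Log2 ratio (LPS over control pool, direction as deposited) of Cd3d, Lef1, Ccr7, Cd37, Blnk and Btg1 on each of the 12 arrays, with circles for fluor and triangles for flip arrays and a colour per rat. Of the points at 2 h, 1 of Cd3d (0.07) and 1 of Ccr7 (0.01) lay above 0, and at 6 h the 6 arrays of every gene lay below 0.

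Cd3d encodes the delta chain of CD3, a signalling subunit of the T cell receptor found on T cells. Its gene lies on chromosome 8 (54184573 to 54190112, GRCr8). At 2 h its ratio was -0.47, -0.44 and -0.27 in rats 1, 2 and 3, a mean of -0.39 ± 0.11 (SD, n = 3), or 76.2% of control. At 6 h it was -0.52, -0.66 and -0.88 in rats 2, 4 and 6, a mean of -0.69 ± 0.18 (SD, n = 3), or 62.1% of control. All rats at 6 h lay below all rats at 2 h. Among all genes 10.1% had such an order, and 21.7% had no overlap in either direction. The difference between the times was -0.30 with a standard error (SE) of 0.10.

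Of the 6 genes, Cd3d had the widest mean gap between the arrays of a rat at both times. Both arrays of a rat lay 0.36 apart on average at 2 h and 0.41 at 6 h, with gaps of up to 0.66 at either time. At 2 h its arrays ran from -0.60 to 0.07 with a median of -0.44, the single array above 0 being the flip array of rat 3. At 6 h they ran from -1.13 to -0.19 with a median of -0.67. The means of the fluor and flip arrays nevertheless had the same sign, at -0.52 and -0.26 at 2 h and -0.73 and -0.65 at 6 h.

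Lef1 encodes lymphoid enhancer-binding factor 1, a TCF/LEF transcription factor of T cell development that is kept in naive T cells and acts with beta-catenin. The gene lies on chromosome 2 (222340541 to 222453931). Its ratio at 2 h was -0.14, -0.36 and -0.19 in rats 1, 2 and 3 (-0.23 ± 0.12, SD, n = 3). At 6 h it was -0.35, -0.28 and -0.21 in rats 2, 4 and 6 (-0.28 ± 0.07, SD, n = 3). The rats of the 2 times overlapped. All 12 arrays lay below 0, from -0.36 to -0.08 at 2 h and from -0.41 to -0.15 at 6 h. The level was thus 85.2% of control at 2 h and 82.5% at 6 h.

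Ccr7 encodes the chemokine receptor that guides naive T cells and dendritic cells to lymph nodes. The gene lies on chromosome 10 (84594399 to 84604514). Its ratio at 2 h was -0.05, -0.33 and -0.10 in rats 1, 2 and 3 (-0.16 ± 0.15, SD, n = 3), and at 6 h -0.14, -0.27 and -0.20 in rats 2, 4 and 6 (-0.21 ± 0.06, SD, n = 3). Rat 2 at 2 h stood apart from the other two, through its fluor array at -0.55. Its flip array was at -0.11. The SD over rats at 2 h was nearly as large as the mean, whereas at 6 h the 6 arrays ran from -0.29 to -0.05. The rats of the 2 times overlapped.

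Cd37 encodes a tetraspanin membrane protein that is abundant on mature B cells and is also carried by other leukocytes. The gene lies on chromosome 1 (104855622 to 104861111). Its ratio at 2 h was -0.36, -0.46 and -0.52 in rats 1, 2 and 3 (-0.45 ± 0.08, SD, n = 3; 73.3% of control). At 6 h it was -0.67, -0.74 and -0.71 in rats 2, 4 and 6 (-0.71 ± 0.03, SD, n = 3; 61.3% of control). The 3 rats at 6 h lay below the 3 at 2 h, an order that 10.1% of all genes had. In either direction, 21.7% of all genes had no overlap. The 3 rats at 6 h lay within 0.07 of each other. The difference between the times was -0.26 (SE 0.05). Fluor and flip arrays gave close means, -0.52 and -0.38 at 2 h and -0.70 and -0.71 at 6 h.

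Blnk encodes the B cell linker protein, an adaptor that couples the B cell receptor to phospholipase C gamma. The gene lies on chromosome 1 (249703064 to 249770533). Its ratio was -0.11, -0.19 and -0.11 in rats 1, 2 and 3 at 2 h (-0.13 ± 0.05, SD, n = 3), and -0.19, -0.11 and -0.06 in rats 2, 4 and 6 at 6 h (-0.12 ± 0.06, SD, n = 3). These were the mean ratios nearest to control of the 6 genes, at 91.1% and 91.9% of control, and they did not separate the times. All 12 arrays lay below 0, the nearest being the flip array of rat 6 at 6 h at -0.01. A ratio as low as that of Blnk was not rare, since 12.6% of all genes had a lower mean at 2 h and 13.4% at 6 h.

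Btg1 encodes an antiproliferative protein of the BTG/TOB family that binds the CCR4-NOT deadenylase complex and is highly expressed in resting lymphocytes, though not in these alone. The gene lies on chromosome 7 (33228149 to 33230406). Its ratio at 2 h was -0.67, -0.69 and -0.91 in rats 1, 2 and 3 (-0.76 ± 0.13, SD, n = 3; 1.69-fold lower than control). At 6 h it was -1.32, -1.26 and -0.79 in rats 2, 4 and 6 (-1.12 ± 0.29, SD, n = 3; 2.18-fold lower). Rat 6 at 6 h lay within the range of the rats at 2 h, so the times overlapped. By mean ratio Btg1 was number 21 from the lowest of 3939 genes at 2 h and number 6 at 6 h. Cd37 was number 79 and 37, and Cd3d number 106 and 39. Unlike the others, Btg1 was lower on the flip than on the fluor arrays at both times, with means of -0.84 and -0.67 at 2 h and -1.31 and -0.94 at 6 h.

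The direction of the flip arrays decides how these values read. Multiplying the flip arrays by -1 leaves what its paired arrays do not share, and a gene that is alike on both then falls near 0. On that reading the means at 2 h were -0.13 for Cd3d, -0.05 for Lef1, -0.07 for Ccr7, -0.07 for Cd37, -0.0095 for Blnk and 0.09 for Btg1. At 6 h they were -0.04, -0.06, -0.01, 0.0072, -0.04 and 0.19 in the same order. Cd37 at 6 h and Btg1 at both times thus took the other sign. In the 13 other settings tried, all 156 means of the 6 genes at 2 h and 6 h lay below 0. Since low ratios chose these genes, nothing is read from that count. Some settings also could not move a mean, such as leaving out a rat of the other time.

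**Figure D2:**
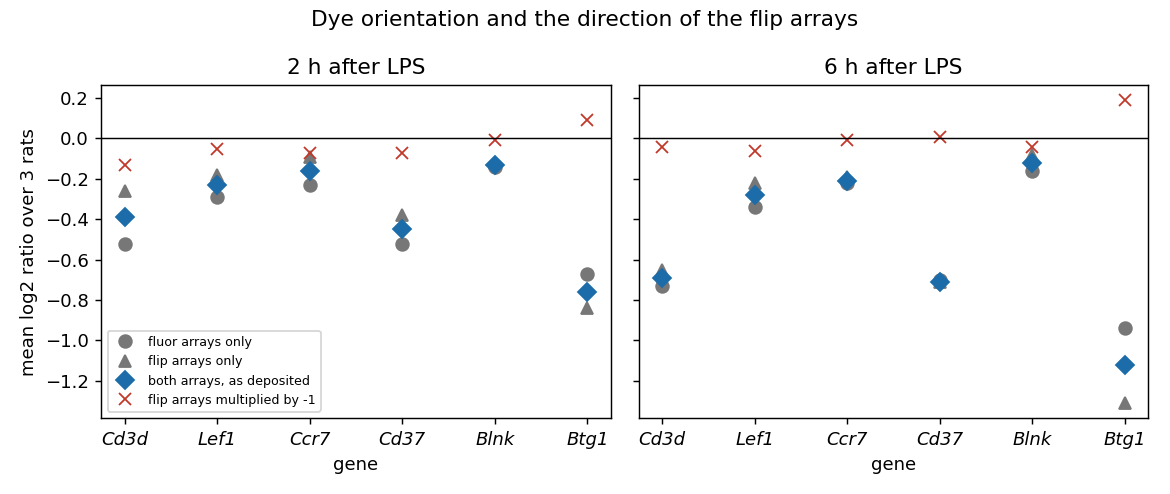
Mean log2 ratio over 3 rats of each gene from the fluor arrays (grey circles), the flip arrays (grey triangles), both as deposited (blue diamonds) and both with the flip arrays multiplied by -1 (red crosses), at 2 h and 6 h. The fluor and flip means lie below 0 for all 6 genes, and the red crosses lie between -0.13 and 0.19.

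Other lymphocyte genes mostly stood near control. Of 75 genes listed as T cell or B cell markers 18 were measured, and 13 of them are not among the 6. In the limma fit across all genes a call is a Benjamini-Hochberg adjusted p under 0.05. At 2 h limma passed 0 of these 13, where 19.2% of all genes passed in either direction. A limma unadjusted p under 0.05 was reached by 1 of the 13 and by 1428 of all 3939 genes. When all 12 arrays were fitted with a dye term, 1 of the 13 passed. At 6 h 1 fell and 1 rose, where 19.0% of all genes passed. The median of the 13 was -0.02 at 2 h and 0.0087 at 6 h, and 9 and 6 of them had a mean below 0. Since low ratios chose the 6 genes, the 13 are what was left over and not a fair sample of lymphocyte genes.

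The gene that fell at 6 h was Cd7, an immunoglobulin-family protein of T and NK cells, at -0.15, -0.12 and -0.07 in the 3 rats (-0.11 ± 0.04, SD, n = 3; limma adjusted p = 0.0368). It missed the threshold without 2 h rat 1 or 3 and without 6 h rat 2, 4 or 6 (limma adjusted p from 0.0529 to 0.202). The gene that rose was Cd24, a surface glycoprotein of immature B cells that granulocytes and red cell precursors also carry. Its ratio was 0.33, 0.13 and 0.77 at 6 h (0.41 ± 0.33, SD, n = 3; limma adjusted p = 0.0391). That call ended without 2 h rat 1 or 3 and without 6 h rat 2 or 6 (limma adjusted p from 0.0544 to 0.128), and the mean was 0.23 without rat 6. With the flip arrays multiplied by -1, Cd7 stood at 0.00084 and Cd24 at -0.0038.

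Several textbook T cell genes stood close to control. Cd5, a receptor that dampens T cell receptor signals, was at -0.06 ± 0.11 at 2 h and -0.08 ± 0.06 at 6 h (SD, n = 3). Gata3, the transcription factor of T helper 2 cells, was at -0.03 ± 0.06 and 0.06 ± 0.02, and Satb1, a chromatin organiser of thymocytes, at -0.01 ± 0.05 and -0.06 ± 0.03. Ltb, which encodes lymphotoxin beta, was at 0.06 ± 0.02 and 0.09 ± 0.05. Dpp4, the peptidase also called CD26, was at -0.11 ± 0.09 and -0.09 ± 0.05, below 0 on all 12 arrays. None of these 5 passed in limma at either time.

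Tcf7, the TCF/LEF factor nearest to Lef1 in T cells, gave no firm comparison. It stood at -0.55 ± 0.46 at 2 h and -0.08 ± 0.62 at 6 h (SD, n = 3) and did not pass in limma. Its rats ran from -1.01 to -0.09 at 2 h and from -0.70 to 0.55 at 6 h, and on at least 1 array its probe held a value that 242 to 298 probes of an array share. Among B cell genes, Cd72, a coreceptor of the B cell receptor, stood at -0.02 ± 0.03 and -0.03 ± 0.05. Ebf1, the early B cell factor, stood at 0.05 ± 0.10 and 0.05 ± 0.08, and Jchain, which joins polymeric immunoglobulins, at 0.04 ± 0.07 and 0.01 ± 0.04 (SD, n = 3). For 6 h minus 2 h limma passed 0 of the 13, where 0.508% of all genes passed. It also passed 0 when all 12 arrays were fitted with a dye term. A limma unadjusted p under 0.05 was reached by 1 of the 13 and by 569 of all 3939 genes.

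**Figure D3:**
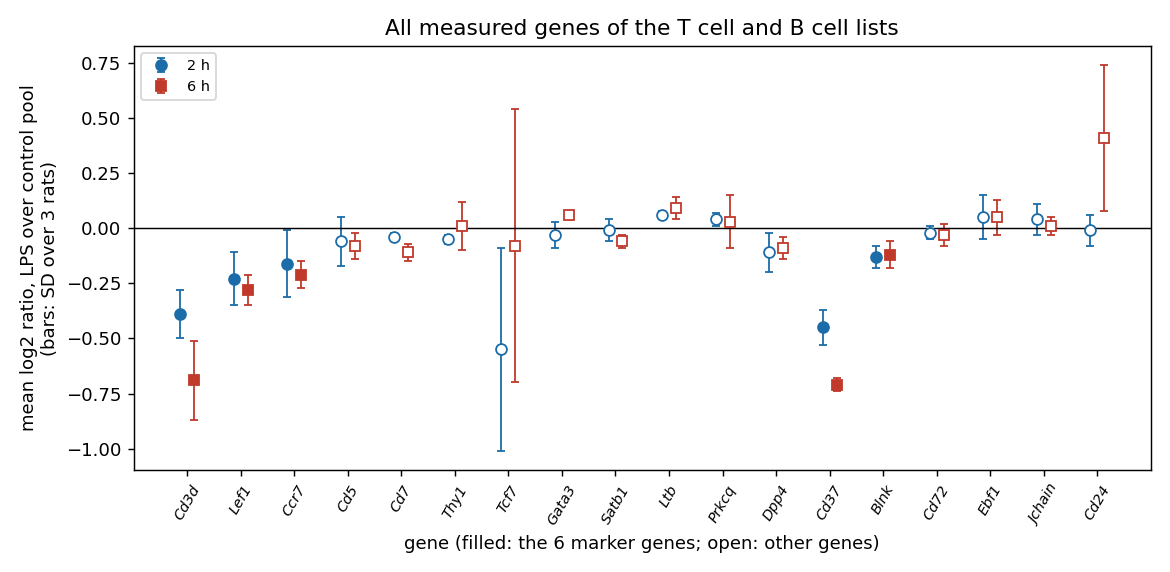
Mean log2 ratio (LPS over control pool) with SD over 3 rats at 2 h (circles) and 6 h (squares) of the 18 measured genes of the T cell and B cell lists, filled for the 5 among the 6 marker genes and open for the other 13. Filled points lie from -0.71 to -0.12, and most open points lie near 0, apart from Tcf7 and from Cd24 at 6 h.

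Several genes of antigen receptor signalling, the cascade in which CD3 and BLNK act, were lower after LPS. Of 44 listed, 12 were measured besides Cd3d and Blnk. At 2 h 5 fell and 0 rose, and at 6 h 6 fell and 1 rose, where 9.82% and 10.7% of all genes fell and 9.34% and 8.3% rose. The medians of the 12 were -0.09 and -0.12. Many of these genes also act in myeloid cells and platelets, so the list does not single out lymphocytes.

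Prkcb, the protein kinase C isoform of B cell receptor signalling, which neutrophils and monocytes also express, had the lowest ratio. Its rats stood at -0.70, -0.84 and -0.86 at 2 h (-0.80 ± 0.09, SD, n = 3; limma adjusted p = 0.000149) and at -0.84, -0.94 and -0.82 at 6 h (-0.87 ± 0.07; limma adjusted p = 8.06e-05). Csk, the kinase that holds Src-family kinases such as LCK inactive, fell by 0.42 ± 0.12 at 2 h (limma adjusted p = 0.00219) and by 0.32 ± 0.06 at 6 h (limma adjusted p = 0.00591). Its partner Ptpn22, a phosphatase of the same brake, fell by 0.32 ± 0.09 (limma adjusted p = 0.00331) and by 0.30 ± 0.06 (limma adjusted p = 0.00387). Either gene lay below 0 on all 12 arrays, but the size depended on the array orientation. Ptpn22 at 2 h was -0.55 on fluor arrays alone and -0.09 on flip arrays alone (limma adjusted p = 0.291), and Csk at 6 h was -0.20 on the fluor arrays (limma adjusted p = 0.245).

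Ptprc, which encodes the pan-leukocyte phosphatase CD45, fell by 0.22 ± 0.04 at 2 h (limma adjusted p = 0.0163) and by 0.38 ± 0.11 at 6 h (limma adjusted p = 0.00171). The call at 2 h ended without 2 h rat 1 (limma adjusted p = 0.0708) or rat 2 (0.0678), and on the fluor arrays alone (limma adjusted p = 0.0604). The other calls, named after their values were seen, were small. The adaptor Nck1 fell at both times (-0.13 ± 0.07 and -0.18 ± 0.03), and at 6 h the exchange factor Vav1 fell (-0.15 ± 0.03) and the adaptor Grb2 rose (0.20 ± 0.04). The calls of Nck1, Vav1 and Grb2 were lost with 1 rat left out, at either time for Nck1 (limma adjusted p from 0.0575 to 0.194). Without 1 rat the count at 2 h was 3 to 4 and at 6 h 4 to 7; it was 3 without 2 h rat 1 or 2, and 4 without 6 h rat 2, 4 or 6. With the flip arrays multiplied by -1, 1 gene fell at 2 h and 3 fell and 2 rose at 6 h. On the flip arrays alone Grb2 stood at 0.04 (limma adjusted p = 0.65) and Vav1 at -0.08 (limma adjusted p = 0.223). With the flip arrays turned Prkcb stood at 0.0044 and 0.16, Csk at 0.0051 and 0.12, and Ptprc at 0.04 and 0.14.

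**Figure D4:**
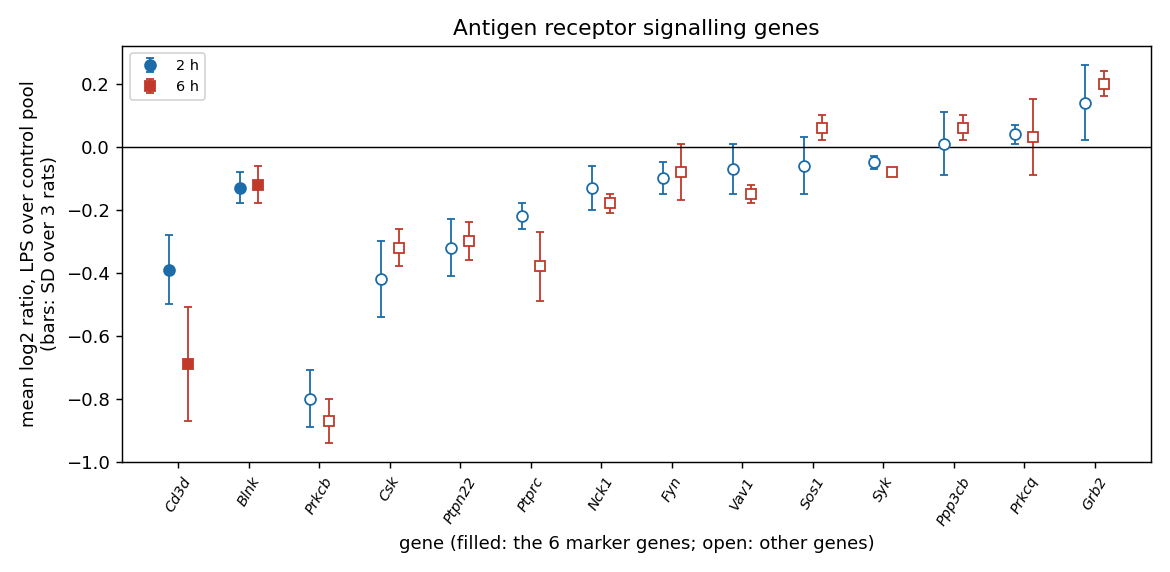
Mean log2 ratio (LPS over control pool) with SD over 3 rats of the 14 measured antigen receptor signalling genes at 2 h (circles) and 6 h (squares), with Cd3d and Blnk filled and the other 12 in order of their mean at 2 h. Prkcb lies lowest of the 12 at both times (-0.80 and -0.87), and Grb2 highest (0.14 and 0.20).

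Of 10 Wnt and TCF/LEF genes measured besides Lef1, 1 was called at 2 h and 3 at 6 h, where 19.2% and 19.0% of all genes were called. The gene that fell at 2 h was Apc, a scaffold that marks beta-catenin for destruction (-0.47 ± 0.21, SD, n = 3; limma adjusted p = 0.0065). At 6 h Apc (-0.28 ± 0.07; limma adjusted p = 0.0409) and the corepressor Ctbp1 (-0.15 ± 0.09; limma adjusted p = 0.0443) fell and the casein kinase gene Csnk1a1 rose (0.14 ± 0.04; limma adjusted p = 0.0210). Each call at 6 h was lost without 6 h rat 2 or rat 6, that of Apc also without 2 h rat 1 or 6 h rat 4, and that of Ctbp1 also without 2 h rat 1 or 3 or 6 h rat 4 (limma adjusted p from 0.057 to 0.182). On the fluor arrays alone Apc at 6 h stood at -0.15 (limma adjusted p = 0.359) and Csnk1a1 at 0.09 (limma adjusted p = 0.112). Ctbp1 stood at -0.02 once 4 neighbouring probes were subtracted. The list medians were 0.0087 and 0.015.

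At 2 h 3 of 6 lymphocyte homing genes besides Ccr7 had a limma unadjusted p under 0.05, as did 1428 of all 3939 genes. After adjustment limma passed 0 of the 6 at 2 h and 1 at 6 h, where 19.2% and 19.0% of all genes passed. That was Itgal, the alpha chain of the integrin LFA-1 (-0.12 ± 0.03, SD, n = 3; limma adjusted p = 0.0304), lost without 2 h rat 1 or 6 h rat 2, 4 or 6 (limma adjusted p from 0.0577 to 0.153) and on the fluor arrays alone (limma adjusted p = 0.166). Cxcr4, the receptor that holds leukocytes in bone marrow, stood at -0.13 ± 0.10 and -0.07 ± 0.05, and its ligand gene Cxcl12 at 0.13 ± 0.09 and 0.09 ± 0.09. Vcam1, an adhesion molecule of endothelium, stood at -0.34 ± 0.45 and 0.07 ± 0.04.

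Among 12 tetraspanins besides Cd37, Tspan8 rose at both times and none fell, where 9.34% and 8.3% of all genes rose. Tspan8, known from epithelia, stood at 0.37 ± 0.19 at 2 h (limma adjusted p = 0.0233) and 0.35 ± 0.16 at 6 h (limma adjusted p = 0.0271). It was lost without 2 h rat 1 or 2 at 2 h and without 6 h rat 2 or 4 at 6 h (limma adjusted p from 0.0588 to 0.141), and at both times on the fluor arrays alone (limma adjusted p = 0.145 and 0.0581). The leukocyte tetraspanins Cd82 (0.27 ± 0.34 and 0.39 ± 0.13) and Cd81 (-0.06 ± 0.04 and -0.11 ± 0.09) and the platelet tetraspanin Tspan9 (0.12 ± 0.05 and 0.04 ± 0.08) did not pass. The 12 other tetraspanins ran from -0.11 to 0.39 over both times, against -0.45 and -0.71 for Cd37. Since low ratios chose Cd37, nothing is read from that gap.

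Of 7 measured BTG/TOB and deadenylation genes besides Btg1, 1 was called at 2 h, where 19.2% of all genes were called and 9.34% rose. That was Cnot1, the scaffold of the CCR4-NOT complex, which rose (0.14 ± 0.03, SD, n = 3, limma adjusted p = 0.0192). The call ended without any 1 of the 2 h rats (limma adjusted p from 0.0588 to 0.0862), and on the flip arrays alone (limma adjusted p = 0.125), and the mean was 0.05 with 4 neighbouring probes subtracted. At 6 h limma passed 0 of the 7, where 19.0% of all genes passed. A limma unadjusted p under 0.05 was reached by 2 of the 7 and by 1454 of all 3939 genes. The CCR4-NOT subunits Cnot8 (-0.06 ± 0.06 and -0.08 ± 0.05) and Cnot9 (-0.03 ± 0.02 and -0.08 ± 0.05) and the deadenylase subunit Pan2 (0.07 ± 0.07 and -0.07 ± 0.06) did not pass.

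The genes nearest to each marker gene were sought by the root mean square difference over the 12 arrays, among 3894 genes without a repeated value. Nearest to Cd3d were the ribosomal protein genes Rpl27l1 (0.204) and Rpl15 (0.225), against a median of 0.63 over all genes. Nearest to Btg1 were Rpl7 (0.243) and Rpl17-ps16 (0.273), against 1.00. Nearest to Cd37 were Ctse, which encodes cathepsin E (0.126), and Rpl27l1 (0.135), against 0.62. Ribosomal protein genes have many near-identical copies, which a probe may not tell apart.

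Lef1 lay nearest to Washc1, a subunit of the WASH complex of endosomes (0.081), and to Ets1, a lymphocyte transcription factor (0.084), against a median of 0.31. Ets1 stood at -0.25 at 2 h and -0.32 at 6 h. Ccr7 lay nearest to Fcgbpl1 (0.094) and Rpl21 (0.095), and Blnk to Mien1 (0.039) and Spats2l (0.046). Genes with ratios near 0 have many close neighbours on this measure, with a median difference of 0.27 for Ccr7 and 0.20 for Blnk.

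Markers of other blood cells gave calls in both directions beside these genes, where 9.34% of all genes rose and 9.82% fell at 2 h and 8.3% rose and 10.7% fell at 6 h. Of 8 measured neutrophil genes 4 rose and 1 fell at 2 h and 4 rose and 0 fell at 6 h, and 2 and 4 of the 8 means lay below 0. Their median ratio per rat ran from 0.24 to 0.36 at 2 h and from 0.07 to 0.13 at 6 h. That of the 6 lymphocyte genes ran from -0.40 to -0.23 and from -0.47 to -0.43, but low ratios chose these genes. The median per rat of the 13 other T and B cell genes lay between -0.07 and 0.01 over both times. The mean per rat of the neutrophil list was higher, from 0.53 to 0.69 and from 0.35 to 0.55, through S100a9. S100a9, a calprotectin subunit that neutrophils hold in plenty, rose by 2.98 ± 0.53 and 2.70 ± 0.44 (SD, n = 3). The other calprotectin subunit gene, S100a8, stood at -0.08 ± 0.10 and -0.05 ± 0.07 and did not pass. Il1r2, the decoy receptor of interleukin-1, rose by 0.62 ± 0.09 and 0.73 ± 0.24, though at 2 h it was 0.37 on the flip arrays alone (limma adjusted p = 0.286). Chi3l1 rose at 2 h (0.57 ± 0.25) and stood at -0.37 ± 0.24 at 6 h. The histidine decarboxylase gene Hdc fell at 2 h (-0.15 ± 0.09), and the defensin gene Defa5 rose at 6 h (0.17 ± 0.03) but stood at 0.0018 on the fluor arrays alone. S100a8, Chi3l1, Hdc and Defa5 were chosen after their values were seen. Lcn2 (0.69 ± 0.33 and 0.61 ± 0.01) took the other sign with 4 neighbouring probes subtracted (-0.50 and -0.69), and its call at 6 h ended without 6 h rat 2 (limma adjusted p = 0.0556). Of the 9 neutrophil calls, 4 were lost with 1 rat left out.

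Of 3 measured monocyte and macrophage genes C1qb fell at 2 h (-0.20 ± 0.04) and C1qb (-0.21 ± 0.03) and C1qc (-0.37 ± 0.29) at 6 h, while Lyz2 stood at -0.07 ± 0.13 and -0.01 ± 0.04 (SD, n = 3). C1qb stood at -0.02 at 2 h and -0.08 at 6 h on the flip arrays alone (limma adjusted p = 0.853 and 0.408), and its call at 2 h also ended with arrays centred and scaled (limma adjusted p = 0.0538). C1qc was lost on the flip arrays alone (limma adjusted p = 0.247) and without 2 h rat 1 or 3 or 6 h rat 2 or 4 (limma adjusted p from 0.0605 to 0.162). Of 5 NK and cytotoxic genes the granzyme Gzmc rose at both times (1.17 ± 0.13 and 1.87 ± 0.25), Il2rb at 2 h (0.42 ± 0.16) and the perforin gene Prf1 at 6 h. Ccl5, a chemokine made by T and NK cells, fell (-0.67 ± 0.30 and -1.07 ± 0.13). Of 10 erythroid genes 5 rose and 1 fell at 2 h, and 1 rose and 2 fell at 6 h. Those that fell were globin genes, Hba-a1 at both times (-0.14 ± 0.03 and -0.12 ± 0.03) and Hbb at 6 h (-0.16 ± 0.11). On the flip arrays alone Hba-a1 stood at 0.08 and 0.01. The genes with the largest ratios, all at 2 h, were the anion exchanger Slc4a1 (0.81 ± 0.21), the carbonic anhydrase Car2 (0.58 ± 0.23) and the heme synthesis enzyme Alas2 (0.46 ± 0.22). Of the 9 erythroid calls, all but that of Slc4a1 were lost with 1 rat left out, and those of Car2 and Alas2 also on the flip arrays alone (limma adjusted p = 0.202 and 0.12). The median per rat ran from 0.19 to 0.44 and from 0.04 to 0.37. Of 2 platelet genes Gp9 rose at 2 h (0.18 ± 0.11). Only leaving out 2 h rat 3 did not end that call (limma adjusted p from 0.0504 to 0.183 without the others). Pf4 stood at 0.34 ± 0.25 and -0.39 ± 0.35. At 6 h 0 of the 2 passed in limma. A limma unadjusted p under 0.05 was reached there by 1 of the 2 and by 1454 of all 3939 genes. The median per rat of the monocyte list ran from -0.22 to -0.16 and from -0.23 to -0.10. That of the NK list ran from -0.07 to 0.08 and from -0.01 to 0.06, and its mean per rat, raised by Gzmc, from 0.10 to 0.27 and from 0.11 to 0.24. That of the platelet list ran from 0.07 to 0.38 and from -0.42 to -0.03. The part of these cell types in the ratios of the lymphocyte genes was not tested.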

How the data were processed

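Total RNA was measured on 12 2-colour arrays of 6 rats. The authors deposited a log2 ratio between channels for every probe on every array, with array medians near 0. The sources used here state no background correction, normalization or dyes. Log base, direction and centring were judged from the values, so the direction is likely only. Of 7200 probes, 4190 had 1 symbol in the platform annotation (46 had several, 2964 none; 4184 were matched by identifier to the GRCr8 gene table). Probes of a gene were averaged, giving 3939 genes. Each array had 242 to 298 probes at 1 repeated value. Both arrays of each rat were averaged, and the 6 rats entered a single limma fit (version 3.58.1, R 4.3.3; lmFit, eBayes) that leaves 4 residual degrees of freedom, with Benjamini-Hochberg adjustment over all genes. Each control pool is 1 sample, so its own spread is left out, and the contrast of the times includes whatever separates the 2 pools. The fit was also run on simulated data with independent noise for each rat and changes at 2 h only. Dye effects, repeated values and the spread of the control pools were not simulated, so that run says nothing about them.

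The 6 genes and all gene lists were chosen with earlier results of these data known. Beside the 6, the text names the called genes of the T cell and B cell lists and up to 6 others of each. It also names the 4 ratios furthest from control of each pathway list and the 3 furthest of each other blood cell list. The 2 nearest genes of each marker gene are named as well. Other genes of these lists were named after their values were seen. The number of arrays limits the precision.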

Additional observations from a re-analysis of the deposited data

Results flagged for a closer look

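In 5 of 61 genes checked (8.2%) every rat at 2 h lay on one side of 0 and every rat at 6 h on the other, as in 4.34% of all 3939 genes. None of these differences passed the fit across all genes (limma adjusted p from 0.0594 to 0.421), and no explanation was tested. Chi3l1, a chitinase-like protein of neutrophil granules, differed by -0.94 (6 h minus 2 h), from rats of 0.37 to 0.85 at 2 h to rats of -0.52 to -0.09 at 6 h. Pf4, platelet factor 4, differed by -0.73, from 0.07 to 0.57 at 2 h to -0.79 to -0.14 at 6 h. The corepressor Ctbp1 differed by -0.23, from 0.03 to 0.13 to -0.24 to -0.08. Vcam1 differed by 0.41, from -0.86 to -0.06 to 0.04 to 0.11, and the deadenylase subunit Pan2 by -0.14, from 0.02 to 0.15 to -0.12 to -0.01. None of the 6 lymphocyte marker genes changed sign between the times in all rats. Low ratios chose these 6, so nothing is read from that.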

How the results depend on the processing

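No paired analysis was possible because the rats of the 2 times share only the number 2. The median of the 6 marker genes was -0.31 at 2 h, -0.48 at 6 h and -0.15 for 6 h minus 2 h. With the flip arrays multiplied by -1 it was -0.06, -0.03 and 0.07, the last with the other sign. At 6 h it was -0.52 on the fluor arrays, -0.43 on the flip arrays, -0.46 with arrays centred and scaled, -0.53 after quantile normalization, -0.46 with 4 neighbouring probes subtracted, and -0.48 to -0.45 with 1 rat left out. For 6 h minus 2 h, Cd3d (0.09), Cd37 (0.08) and Btg1 (0.10) also turned with the flip arrays.

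Genes called numbered 755 at 2 h, 749 at 6 h and 20 between the times. At 2 h they numbered 1142 on fluor arrays alone and 336 on flip arrays alone, and 323 to 668 with 1 rat left out. At 6 h they numbered 1461 with the flip arrays turned, 1202 on the fluor arrays, and 306 to 927 with 1 rat left out. Between the times they numbered 0 with the flip arrays turned, 4 on the fluor arrays, 5 on the flip arrays, 8 after quantile normalization, 131 when all 12 arrays entered with a dye effect and rats as random blocks, 11 named probes when tested by probe, and 2 to 31 with 1 rat left out. Of the other 13 T and B cell genes, 0 were called at 2 h, but 2 with the flip arrays turned, 2 on the fluor arrays, 3 with neighbours subtracted and 1 with the dye term. At 6 h 2 were called, against 4 with the flip arrays turned, 1 with arrays centred and scaled, 1 after quantile normalization, 4 with neighbours subtracted, 1 by probe, and 0 to 2 with 1 rat left out. Other antigen receptor signalling genes, a count added after seeing the data, numbered 5 at 2 h (1 with the flip arrays turned, 3 on the flip arrays, 3 to 4 with 1 rat left out) and 7 at 6 h (4 to 7 with 1 rat left out).

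Of 50 calls on genes other than the 6, 22 held with any 1 rat left out 9 passed with the same sign when the flip arrays were turned, 39 passed on the fluor arrays alone and 30 on the flip arrays alone. Values with the other sign when turned were, at 2 h, Btg1 0.09, Prkcb 0.0044, Csk 0.0051, Ptprc 0.04, Tspan8 -0.11, Lcn2 -0.15, Ccl5 0.17 and Nck1 0.05. At 6 h they were Cd37 0.0072, Btg1 0.19, Cd7 0.00084, Cd24 -0.0038, Prkcb 0.16, Csk 0.12, Ptprc 0.14 (past the threshold), Apc 0.13, Ctbp1 0.00096, Csnk1a1 -0.05, Itgal 0.04, Il1r2 -0.09, Ccl5 0.25, Defa5 -0.17 (past the threshold) and Prf1 -0.07. Defa5 was at -0.04 and Lcn2 at -0.50 and -0.69 with neighbours subtracted, and Hba-a1 at 0.08 (2 h) and 0.01 (6 h) on the flip arrays alone. A turned value keeps only what paired arrays do not share, so it lies above 0 where the fluor mean is the higher. Btg1 at 6 h stood at -0.94 on fluor and -1.31 on flip arrays, and Defa5 at 0.0018 and 0.34. If the flip arrays are read as deposited, the other sign of a turned value is no reversed response to LPS by itself. Had they been deposited in the other direction, the turned values would be the response. The direction is likely rather than settled, and the labels do not decide it. The cause of the differences between the orientations, and of the shifts with neighbours subtracted, was not tested.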
